A study of Mus musculus with 14 samples.

Results

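Retinoic acid is made from vitamin A and acts on the developing spinal cord, where it shapes the identity of motoneurons. The 10 genes described here cover its synthesis (Aldh1a2), its breakdown (Cyp26a1, Cyp26b1), its carriers in the cytoplasm (Crabp1, Crabp2), its nuclear receptors (Rara, Rarb, Rxra, Rxrg) and a gene that it induces (Stra8). They were chosen by name among the 23523 gene entries of the deposited table, and all 10 were found there.

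The study asked what the loss of miR-218, a microRNA found in motoneurons, does to these cells, and 13 of its mRNA libraries are described here. The motoneurons were GFP-positive cells of Hb9::gfp embryos at stage E12.5. Of these libraries, 2 came from 218DKO embryos (double knockout, DKO), and 6 came from wild-type embryos with the same reporter (WT). Interneurons of that stage were tdTomato-positive cells of wild-type embryos with 1 library each: V1 (En1:cre), V2a (Chx10:cre) and V3 (Sim1:cre), all with Rosa26:LSL:tdTomato. Cre marks a cell and its descendants, so these labels follow lineage. After 4 days of differentiation, mouse embryonic stem cells (mES) were collected as tdTomato-positive motoneuron progenitors (Olig2:cre; Rosa26:LSL:tdTomato, 1 library) and as unsorted neural progenitors with no reporter (1 library). Both mES cultures had been exposed to retinoic acid and an agonist of sonic hedgehog, per the labels' protocols, so the agent whose pathway is described here was added to these cells and not to the embryonic ones. The labels do not say whether replicates came from separate embryos or litters, so the p-values measure the spread between these libraries, which may be technical.

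In the embryo, the aldehyde dehydrogenase encoded by Aldh1a2 carries out the last step of retinoic acid synthesis, and spinal motoneurons that innervate limbs are a known site of its expression. Retinoic acid enters the nucleus and binds receptors of the RAR family, which sit on DNA as dimers with RXR proteins. The cytochrome P450 enzymes of the Cyp26 family oxidise retinoic acid and end its action, and Cyp26a1 is itself a gene that retinoic acid induces. Rarb is likewise both a receptor and a target.

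The best known DNA element of retinoic acid receptors is the DR5 element, a direct repeat of 6 bases with a spacer of 5 bases. It was searched on both strands in RefSeq promoter windows (GRCm38.p6) that run from 250 bases before to 50 bases after a gene's start, with DR1 and DR2 elements (spacers of 1 and 2 bases) beside it. Among the 14 windows of 9 members, those of Cyp26a1 and Rarb held a DR5 match, and the other windows searched held none of the 3 elements. Over all 32851 windows, 0.0974% held a DR5, 0.222% a DR1 and 0.268% a DR2 match, and 1 window can match several. The matches are shown because Cyp26a1 and Rarb, although they share the element, had unlike patterns over the libraries. Capitals mark the repeats. The first lies at chr19:37697769-37697798 on the minus strand, opposite to the gene, with its element 32 to 16 bases before the promoter table's start. The second lies at chr14:16575506-16575535 on the minus strand, that of the gene, with its element 53 to 37 bases before the start.
Cyp26a1: caaattAGTTCAcccaaAGTTCAtctttaa
Rarb: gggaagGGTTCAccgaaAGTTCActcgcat

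The seed of miR-218, the bases 2 to 8 by which a microRNA pairs with messenger RNA, is in capitals in the RefSeq sequence of miR-218-5p, made from chr5:48223966-48223986 and from chr11:35616840-35616860 (GRCm38.p6, plus strand). Annotated 3′ UTRs (GENCODE M21, GRCm38) were searched for AAGCACA, its complement (7mer-m8), for AGCACAA (7mer-A1), and for both overlapping (8mer). Of the 10 members only Rara held a match, a 7mer-m8 in its 3′ UTR at chr11:98974145-98974173 on the plus strand, shown with the match in capitals. That is 1 of 10 members, and 1 of the 8 that were tested between DKO and WT motoneurons. Of the 14713 genes with an annotated 3′ UTR tested there, 19.9% held a match.
miR-218-5p: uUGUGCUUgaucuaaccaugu
Rara site: attttcattttAAGCACAtttatactgaa

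Each gene was deposited with a signal, an abundance scaled by transcript length and between libraries. Its total ranged from 6.24e+06 to 9.88e+06, and the steps of its low values gave approximate depths of 7.35 and 15.3 M reads in DKO motoneurons, 11.7 to 28.2 M in WT motoneurons, 16.0 to 17.3 M in interneurons and 23.1 to 25.6 M in mES cells. At these depths, 3 reads on 2000 bases of transcript are worth a signal between 0.988 (WT replicate 1) and 3.94 (DKO replicate 1). The genes behind the sorting reporters stood where the labels place them: Mnx1, which encodes Hb9, had 4330 and 3863 in DKO motoneurons and 2194 to 3995 in WT motoneurons, against 0.775 to 7.46 in interneurons, and En1 and Sim1 were highest in V1 and V3. The V2a and V3 libraries also held signal of connective tissue genes (Col1a1, Col1a2, Col3a1, Foxc1, Foxc2, Twist1, Pdgfra), which summed to 213 and 952, against 12.6 in V1 and 5.56 to 22.5 in WT motoneurons. Blood genes (Hba-a1, Hbb-bt, Alas2) summed to 6879 in V2a, against 132 in V1, 271 in V3 and 5.88 to 719 in WT motoneurons. The level of miR-218 itself was not analysed here.

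**Figure D1:**
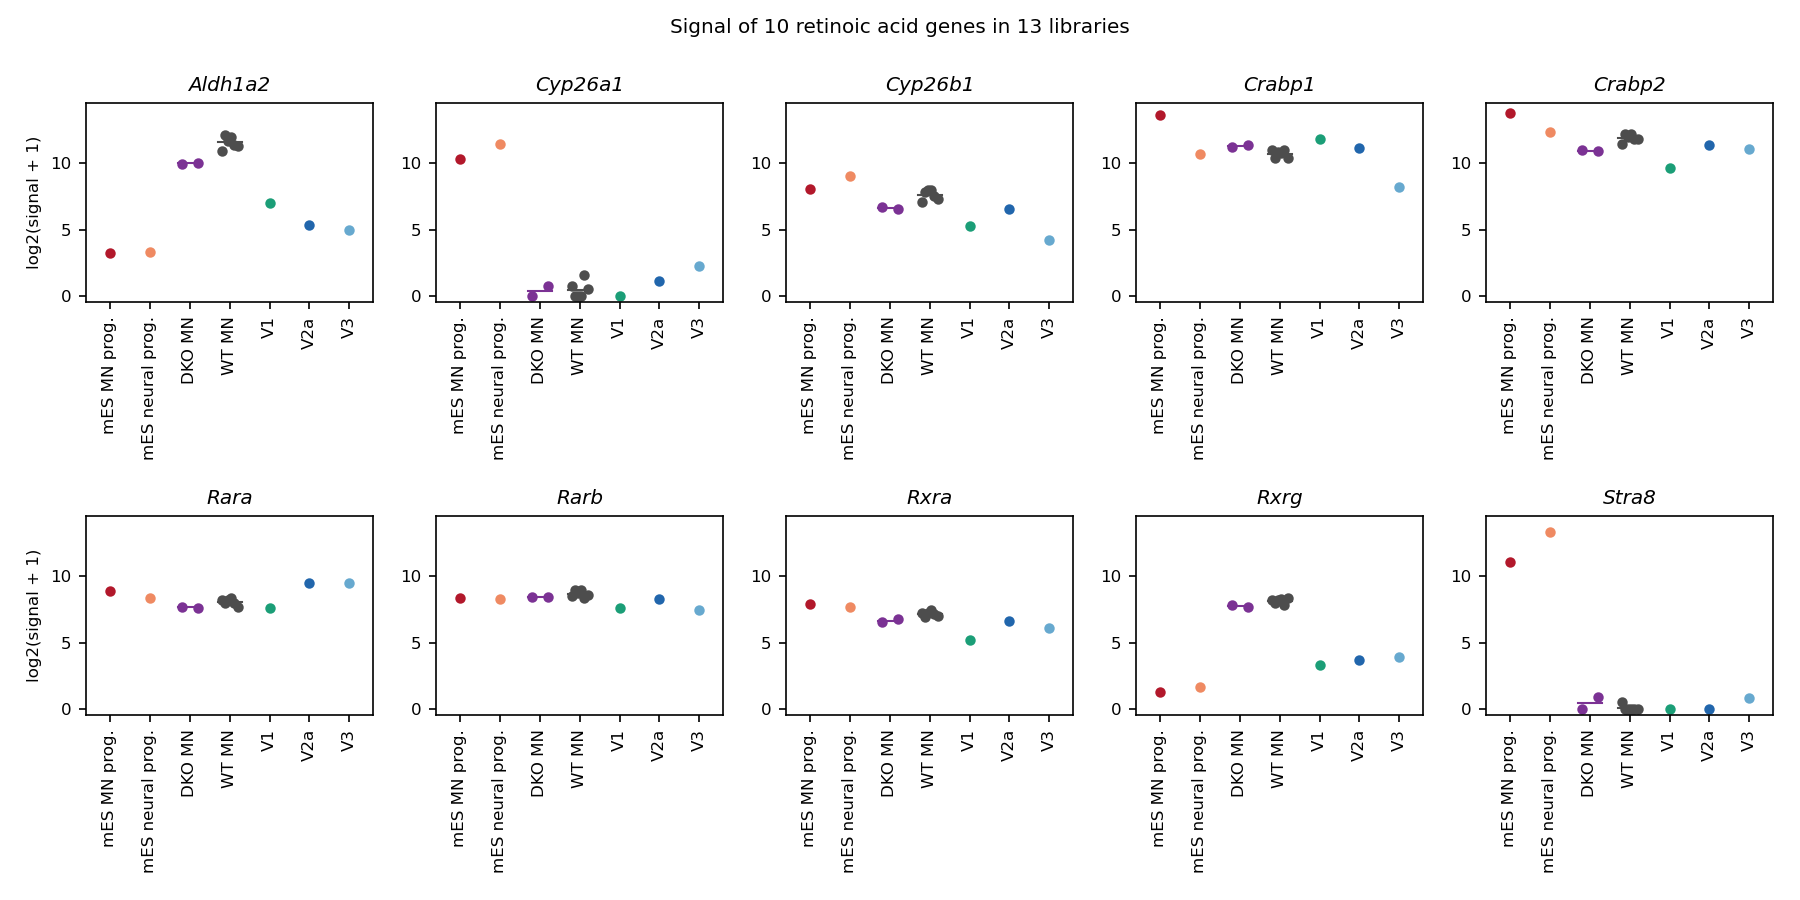
Each point is 1 library, with log2(signal + 1) on the vertical axis and the cell groups along the horizontal axis (mES MN prog., mES motoneuron progenitors; MN, motoneurons; bars, means of the 2 DKO and 6 WT libraries). Aldh1a2 and Rxrg are high in motoneurons, Cyp26a1 and Stra8 in mES progenitors, and Rarb spans the narrowest range, from 170 to 492.

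Aldh1a2 (chr9:71215789-71296243) had the widest range, as a ratio of highest to lowest signal, among the members that were detected in every library. Its signal was 8.56 in mES motoneuron progenitors and 8.89 in mES neural progenitors. DKO motoneurons had 989 and 1050, and WT motoneurons ranged from 1958 to 4373 with a median of 2921. In interneurons it was 126 in V1, 39.3 in V2a and 31.5 in V3. The groups thus stood in the order WT motoneurons, DKO motoneurons, V1, V2a, V3 and mES cells, without overlap between the motoneuron groups, while the mES libraries differed by 1.04-fold. V1 stood 3.19-fold above V2a, and a single library of each type gives no spread to judge that by.

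The Cyp26 genes for breakdown differed in where they were measured. Cyp26a1 (chr19:37697738-37701536) had a signal of 1277 in mES motoneuron progenitors and 2765 in mES neural progenitors. In DKO motoneurons it was listed at 0 and 0.701, in WT motoneurons at 0 in 3 libraries and between 0.459 and 1.99 in the others, and in V1, V2a and V3 at 0, 1.22 and 3.88. These embryonic values stand for about 6 reads or fewer in a library, so in embryonic neurons it was at the limit of detection at this depth. Cyp26b1 (chr6:84571414-84593908) had 265 in mES motoneuron progenitors, 513 in mES neural progenitors, 102 and 95.7 in DKO motoneurons, and 135 to 254 with a median of 206 in WT motoneurons. Interneurons had 37.2 (V1), 93.4 (V2a) and 17.9 (V3). Every embryonic library thus held Cyp26b1, and V3 held least of it.

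A carrier was the most abundant member in every library except that of mES neural progenitors, where Stra8 was. Crabp2, which delivers retinoic acid to its receptors, had 14034 in mES motoneuron progenitors and 5291 in mES neural progenitors. It had 2005 and 1916 in DKO motoneurons, 2768 to 4753 with a median of 3806 in WT motoneurons, and 800, 2595 and 2141 in V1, V2a and V3. DKO motoneurons lay below every WT library and below V2a and V3. Crabp1, which binds retinoic acid in the cytoplasm and is linked to its breakdown, had 12457 in mES motoneuron progenitors and 1646 in mES neural progenitors. Its signal was 2446 and 2617 in DKO motoneurons, 1357 to 2030 with a median of 1786 in WT motoneurons, and 3559, 2210 and 294 in V1, V2a and V3. The order of the interneurons was thus V1, V2a, V3 for Crabp1, whereas V1 was the lowest of the 13 libraries for Crabp2.

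Among the receptors, Rarb (chr14:16430839-17082331) was the most even, with a coefficient of variation of 27.5% over the 13 libraries against 41.3% for Rxra, 53.3% for Rara and 81.5% for Rxrg. It had 324 in mES motoneuron progenitors, 306 in mES neural progenitors, 335 and 348 in DKO motoneurons, 326 to 492 with a median of 411 in WT motoneurons, and 192, 315 and 170 in V1, V2a and V3. Rara (chr11:98927800-98974942) had 462 in mES motoneuron progenitors, 320 in mES neural progenitors, 205 and 192 in DKO motoneurons, 200 to 330 with a median of 275 in WT motoneurons, and 191, 712 and 713 in V1, V2a and V3. V2a and V3 thus held the most Rara, 2.63-fold the WT mean each, and V1 the least. Rara signal stood high in the same V2a and V3 libraries that held connective tissue signal and, in V2a, blood signal, whose part in this was not tested.

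The RXR partners were not alike. Rxra (chr2:27676445-27763319) had 233 in mES motoneuron progenitors, 207 in mES neural progenitors, 93.7 and 107 in DKO motoneurons, 119 to 175 with a median of 146 in WT motoneurons, and 36.6, 98.6 and 66.0 in V1, V2a and V3. Rxrg (chr1:167598362-167639623) had 1.51 in mES motoneuron progenitors, 2.26 in mES neural progenitors, 222 and 203 in DKO motoneurons, 221 to 330 with a median of 295 in WT motoneurons, and 9.0, 11.7 and 14.6 in V1, V2a and V3. Rxrg was therefore a motoneuron gene in these libraries, with mES cells at the bottom, while Rxra was highest in mES cells. Stra8 (chr6:34920163-34939344), named for its induction by retinoic acid and known for its role in the entry of germ cells into meiosis, had 2145 in mES motoneuron progenitors and 9926 in mES neural progenitors. In DKO motoneurons it was listed at 0 and 0.859, in WT motoneurons at 0 in 5 libraries and 0.454 in the sixth, and in V1, V2a and V3 at 0, 0 and 0.791. Each of the embryonic values above 0 stands for about 1 read.

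Between DKO and WT motoneurons, the synthesis enzyme, 1 breakdown enzyme and 1 carrier were lower without miR-218. Aldh1a2 averaged 1019 ± 43.5 in DKO motoneurons (SD, n = 2) and 3134 ± 934 in WT motoneurons (n = 6), a difference of -1.57 in log2(signal + 1) with a standard error of 0.26. Crabp2 averaged 1960 ± 63.3 in DKO and 3876 ± 740 in WT motoneurons, a difference of -0.96 (SE 0.18). For Cyp26b1 the means were 98.8 ± 4.28 in DKO and 201 ± 49.4 in WT motoneurons, a difference of -0.98 (SE 0.23). The limma adjusted p over all 16260 genes was 0.00686 for Aldh1a2, 0.0124 for Crabp2 and 0.0292 for Cyp26b1. For each of the 3, both DKO libraries lay below all 6 WT libraries.

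These 3 fell and none rose among the 8 members tested, against 7.99% of all genes called, of which 3.22% were higher and 4.77% lower in DKO. The median difference of the 8 members was -0.47, beside 0.0015 over all genes. Cyp26a1 and Stra8 did not reach the mean signal of 1 that the test required in motoneurons. Scaled to library totals, 805 genes were called higher and 652 lower in DKO, instead of 523 and 776, and the 3 members stayed lower.

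The other 5 members did not pass. Crabp1 averaged 2531 ± 121 in DKO motoneurons and 1723 ± 298 in WT motoneurons, a difference of 0.57 (SE 0.17, limma adjusted p = 0.0601), and was the single member with a positive estimate. Rxra differed by -0.51 (95% interval -0.86 to -0.16, limma adjusted p = 0.0749). The DKO and WT values of Crabp1 and Rxra did not overlap either, which makes 5 of the 8 members, against 30.7% of all genes. Rara, the member with a miR-218 site, differed by -0.43 (limma adjusted p = 0.146), so its estimate lay on the lower side in motoneurons without miR-218. Rxrg differed by -0.40 (limma adjusted p = 0.137) and Rarb by -0.26 (limma adjusted p = 0.325), with intervals of -0.75 to -0.05 and -0.61 to 0.09.

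With 2 DKO libraries, an exact two-sided permutation test of a single gene can reach no less than p = 0.0357. Aldh1a2, Cyp26b1, Crabp2 and Rxra reached it. Leaving out either DKO library ended all 3 calls, with limma adjusted p for Aldh1a2 of 0.106 without the first and 0.0859 without the second, while its difference stayed between -1.69 and -1.46 over all left-out libraries. Without WT replicate 4, Cyp26b1 just missed the threshold and was not called, with a limma adjusted p of 0.0504. A single fit of all 13 libraries also ended the 3 calls (Aldh1a2, limma adjusted p = 0.0772).

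**Figure D2:**
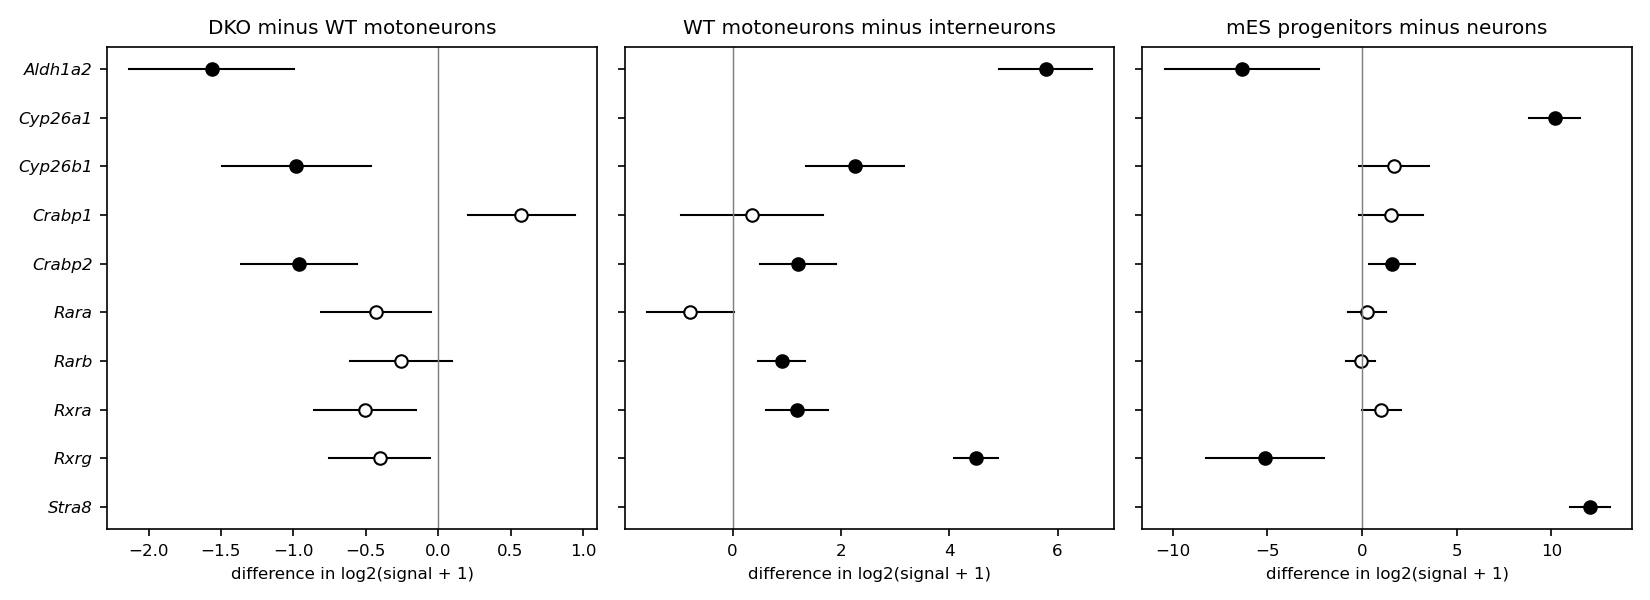
Points give the difference in log2(signal + 1) of each member for DKO minus WT motoneurons, WT motoneurons minus interneurons, and mES progenitors minus wild-type embryonic neurons, with 95% intervals as lines. Filled points passed an adjusted p of 0.05 over all genes; Aldh1a2, Cyp26b1 and Crabp2 are filled on the negative side in the first panel, and members without a point were not tested. In the last panel, Cyp26a1 and Stra8 entered the test only through the mES libraries.

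The WT motoneuron libraries themselves differed. Replicates 2, 3 and 4 held more of the ribosomal precursor Rn45s (10197 to 27943) than replicates 1, 5 and 6 (644 to 4275), and the DKO libraries had 1647 and 1112. Aldh1a2 averaged 3879 ± 610 in replicates 2, 3 and 4 and 2388 ± 375 in replicates 1, 5 and 6 (SD, n = 3 each). Cyp26b1, Crabp2 and Rarb were divided the same way, with ratios of 1.52, 1.36 and 1.31 beside 1.62 for Aldh1a2. All 4 genes were above without overlap, out of 8 members tested, and 0 were below, against 13.4% and 15.9% of all genes. These libraries were grouped by Rn45s, and no batch is given in the labels. Depth divided the same way, at 11.7 to 19.5 M reads in replicates 2, 3 and 4 and 23.7 to 28.2 M in replicates 1, 5 and 6. Of the markers of limb-innervating motoneurons given below, Foxp1 (1324 to 1439 against 788 to 1111) and Hoxc8 (2239 to 3166 against 1630 to 1932) did so too. The others overlapped, and the part of any of these in the split was not tested.

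Set against either set of WT libraries alone, the 3 genes were still called lower in DKO. They divide along these sets without overlap, so each set alone leaves out part of their WT spread. These calls are therefore no separate support for the difference. The difference of Aldh1a2 was -1.91 against WT replicates 2, 3 and 4 (limma adjusted p = 0.00185) and -1.22 against WT replicates 1, 5 and 6 (limma adjusted p = 0.00462). For Crabp2 it was -1.18 and -0.74, and for Cyp26b1 -1.29 and -0.67. The log2 difference in DKO motoneurons thus moved with the WT libraries used, and was larger against WT replicates 2, 3 and 4 for each of the 3 genes.

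**Figure D3:**
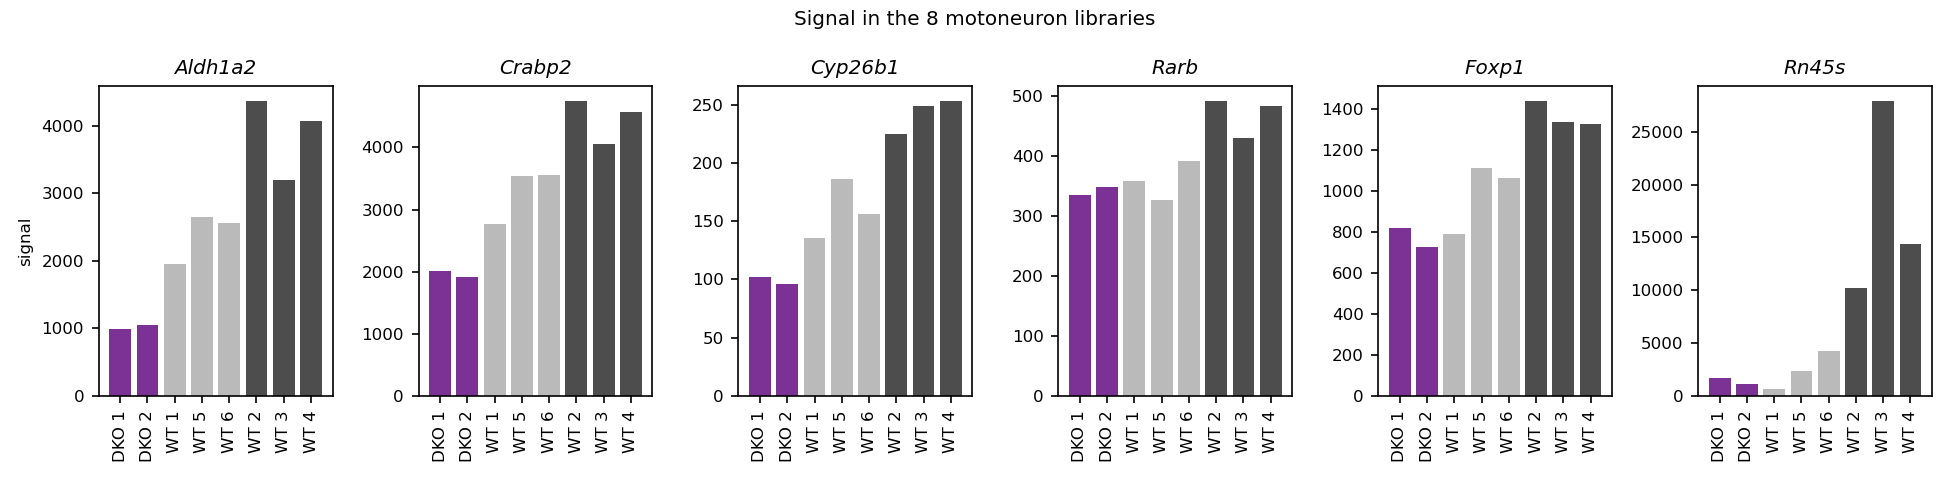
Bars give the signal of 4 members, of Foxp1 (a marker of the limb-innervating motor column) and of the ribosomal precursor Rn45s in each motoneuron library, DKO in purple, WT replicates 1, 5 and 6 in light grey and WT replicates 2, 3 and 4 in dark grey. Aldh1a2, Crabp2 and Cyp26b1 are lowest in both DKO libraries, and Rarb and Foxp1 in DKO lie beside the lowest WT libraries.

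Markers of the motor columns were looked at beside these results, since Aldh1a2 is a gene of limb-innervating motoneurons. In bulk libraries, fewer cells of a type and less RNA per cell cannot be told apart. Of 8 markers of the lateral column (Foxp1, Lhx1 and 6 Hox genes), none passed between DKO and WT motoneurons in limma. Their summed signal was 6543 and 6857 in DKO motoneurons and 6272 to 8512 in WT motoneurons. In V1, V2a and V3 the same markers summed to 8639, 7843 and 10353. Foxp1, the factor that defines the lateral column, had 816 and 723 in DKO motoneurons and 788 to 1439 in WT motoneurons, a difference of -0.59 (limma adjusted p = 0.0899). It was 1 of 3 lateral markers at an unadjusted p under 0.05, and the others had positive estimates, Hoxa10 of 0.81 (limma adjusted p = 0.0575) and Hoxd10 of 0.53 (limma adjusted p = 0.0638). Hoxa10 had 719 and 688 in DKO motoneurons and 281 to 591 in WT motoneurons, and Hoxd10 had 1062 and 1182 in DKO and 632 to 922 in WT motoneurons. Lhx3, a factor of the medial column, differed by -0.79 (limma adjusted p = 0.0350). Lhx4, of the same column, had 841 and 840 in DKO motoneurons and 415 to 673 in WT motoneurons, a difference of 0.55 (limma adjusted p = 0.0557). The summed signal of the medial and thoracic markers was 2146 and 2092 in DKO and 1835 to 2945 in WT motoneurons. In V1, V2a and V3 it was 803, 6826 and 1687, so neither sum measures column content alone. The part of column composition in the Aldh1a2 result was not tested.

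Connective tissue around the cord is another source of Aldh1a2. Its 7 markers summed to 3.60 and 2.37 in DKO motoneurons and to 5.56 to 22.5 in WT motoneurons, and none of the 3 tested passed in limma (0 at an unadjusted p under 0.05). Foxc1 and Foxc2 were at 0 in both DKO libraries and in some WT libraries. They reached at most 0.662 and 0.485 in WT motoneurons, so both lay at the limit of detection in all of these libraries. In V3, where the same markers summed to 952, Aldh1a2 had a signal of 31.5. The marker sums of DKO motoneurons, like their Aldh1a2, lay below those of every WT library, and their part in the result was not tested.

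Between WT motoneurons and the interneurons, 6 of the 8 members tested were higher in motoneurons and none lower, against 17.7% and 15.2% of all 16486 genes (32.9% called in all). Aldh1a2 stood highest, at 3134 ± 934 in WT motoneurons and 65.5 ± 52.2 in interneurons (SD, n = 6 and 3), a difference of 5.78 (SE 0.39, limma adjusted p = 5.5e-06). Rxrg followed, at 284 ± 41.7 in WT motoneurons and 11.8 ± 2.78 in interneurons, a difference of 4.49 (SE 0.18, limma adjusted p = 2.6e-07). On the linear scale the ratios of the means were 47.8 for Aldh1a2 and 24.1 for Rxrg. Thus the synthesis enzyme and 1 receptor partner marked motoneurons most among the members.

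Smaller differences were found for the other 4. Cyp26b1 was higher by 2.27 (SE 0.41, limma adjusted p = 0.00237), with 201 ± 49.4 in WT motoneurons and 49.5 ± 39.2 in interneurons. Crabp2 was higher by 1.21 (limma adjusted p = 0.0151), Rxra by 1.19 (limma adjusted p = 0.00609) and Rarb by 0.91 (limma adjusted p = 0.00658). The 6 genes were those whose WT and interneuron values did not overlap, against 33.1% of all genes, and the members' median difference was 1.20 beside -0.04 over all genes. The motoneuron libraries thus held more of the enzyme that makes retinoic acid, of 1 enzyme that degrades it, of 1 carrier and of 3 receptors.

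Crabp1 and Rara did not pass. Crabp1 differed by 0.36 (95% interval -0.96 to 1.68, limma adjusted p = 0.662), and without the V3 library, in which it was low, the difference was -0.72 (limma adjusted p = 0.0316). Rara differed by -0.78 (95% interval -1.58 to 0.02, limma adjusted p = 0.120), and without the V1 library by -1.41 (limma adjusted p = 3.1e-04). Both depend on which interneuron types make up the class. With WT replicates 1, 5 and 6 alone, the limma adjusted p was 0.140 for Crabp2, 0.0714 for Rarb and 0.0544 for Rxra, so 3 members were called. The 6 WT libraries also enter the comparison with DKO motoneurons, so both rest on the same WT values. Scaled to library totals, 1941 genes were higher and 3751 lower in WT motoneurons, instead of 2921 and 2498, and the median of all genes was -0.17.

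Between mES progenitors and wild-type embryonic neurons, 8 members averaged a signal of at least 1 on both sides. Of these, 1 was called higher and 2 lower in the progenitors, against 33.0% and 27.2% of all 17219 genes (60.2% called in all). The shares of all genes also count genes that entered the test through 1 side alone. Stage, culture, source and the added retinoic acid differ together between these groups and cannot be told apart. Stra8 and Cyp26a1 were tested only because they are high in the mES libraries, and so had to differ. They were at 0 in 7 (Stra8) and 4 (Cyp26a1) of the 9 neuron libraries, and their levels above stand as a description without a test. Crabp2 was higher by 1.58 (SE 0.56, limma adjusted p = 0.0265), with 9663 ± 6183 in the mES progenitors (SD, n = 2) and 3199 ± 1261 in the neurons (n = 9).

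Aldh1a2 was lower in mES progenitors, with a difference of -6.35 (SE 1.87, limma adjusted p = 0.0105), and Rxrg had a difference of -5.13 (SE 1.44, limma adjusted p = 0.00803). The neuron class pools 6 WT motoneuron libraries, where both genes are high, with 3 interneuron libraries. Interneurons alone had 31.5 to 126 of Aldh1a2, against 8.56 and 8.89 in mES progenitors. For Rxrg they had 9.0 to 14.6, against 1.51 and 2.26 in mES progenitors. Those mES values of Rxrg lie near the signal of 3 reads on 2000 bases there, 1.22 and 1.21. The cultures that were given retinoic acid thus held little messenger RNA for the enzyme that makes it and much for Cyp26a1. Cyp26b1 (1.67, limma adjusted p = 0.108), Crabp1 (1.53, limma adjusted p = 0.109) and Rxra (1.01, limma adjusted p = 0.0790) had positive estimates that did not pass. Rarb, which shares the DR5 element with Cyp26a1, differed by -0.07 (95% interval -0.85 to 0.71, limma adjusted p = 0.871), and Rara by 0.26 (95% interval -0.74 to 1.26, limma adjusted p = 0.643).

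Values of mES progenitors and neurons did not overlap for 5 of these 8 members, against 56.5% of all genes, a share near the background. That background also counts genes that entered the test through a single side. Without the mES motoneuron progenitor library, none of the 3 calls held, and the limma adjusted p was 0.0907 for Aldh1a2, 0.0853 for Rxrg and 0.373 for Crabp2. Without the mES neural progenitor library, Aldh1a2 (limma adjusted p = 0.0834) and Rxrg (limma adjusted p = 0.0626) were not called, and Crabp1 was, at 2.99 (limma adjusted p = 0.0231). Without V1, Rxra was called at 0.82 (limma adjusted p = 0.0350). Scaled to library totals, 3652 genes were higher and 5395 lower in mES progenitors, instead of 5680 and 4691.

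The mES libraries had no replicates, and they are described without a test. Motoneuron progenitors had 7.57-fold the Crabp1 and 2.65-fold the Crabp2 signal of neural progenitors. Neural progenitors had 4.63-fold the Stra8 and 2.17-fold the Cyp26a1 signal of motoneuron progenitors, and 1.94-fold the Cyp26b1 signal. Of the 10 members, 2 were thus at least 2-fold higher and 2 at least 2-fold lower in motoneuron progenitors, beside 8.32% and 16.7% of all genes (25.0% either way). Aldh1a2, Rarb and Rxra differed by less than 1.2-fold between these libraries. The carriers and the inducible genes thus stood in opposite order in the sorted and the unsorted cells.

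Single transcripts of 3 genes carried different shares of the signal across libraries. For Cyp26b1, with 2 RefSeq transcripts, NM_001177713 made up 8.7% and 27.5% of the gene's signal in DKO motoneurons and 38.8% to 73.5% in WT motoneurons. Its signal was 8.89 and 26.3 in DKO motoneurons and 80.2 to 183 in WT motoneurons, while that of the other transcript, NM_175475, was 92.9 and 69.4 in DKO and 36.8 to 155 in WT motoneurons. As the authors divided the reads, NM_001177713 was thus lower in both DKO libraries than in every WT library, while NM_175475 overlapped. The transcripts are alike in length (4170 and 4157 bases, with 3′ UTRs of 2323 bases each), and which of them was lower was not tested. In V2a all of it, and in V3 1.4%, was given to that transcript, so the share varied widely between single libraries.

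For Rxrg, NM_001159731 held 16.8% and 13.2% of the signal in DKO motoneurons, with 37.4 and 26.8, against 21.3 in WT replicate 1, 6.34 in WT replicate 6 and 0 in the other WT libraries. Interneurons and mES cells had none of it. For Rara, NM_009024 held 36.9% in mES motoneuron progenitors and 39.5% in mES neural progenitors, and 3.1% to 17.1% in the embryonic libraries. NM_001176528 held 71.5% of Rara in V2a and 76.4% in V3, and 32.0% in V1. The high Rara signal of V2a and V3 was mostly this transcript, with 509 and 545 of a total of 712 and 713. The shares are the authors' division of reads among overlapping transcripts, and no test was made of them.

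**Figure D4:**
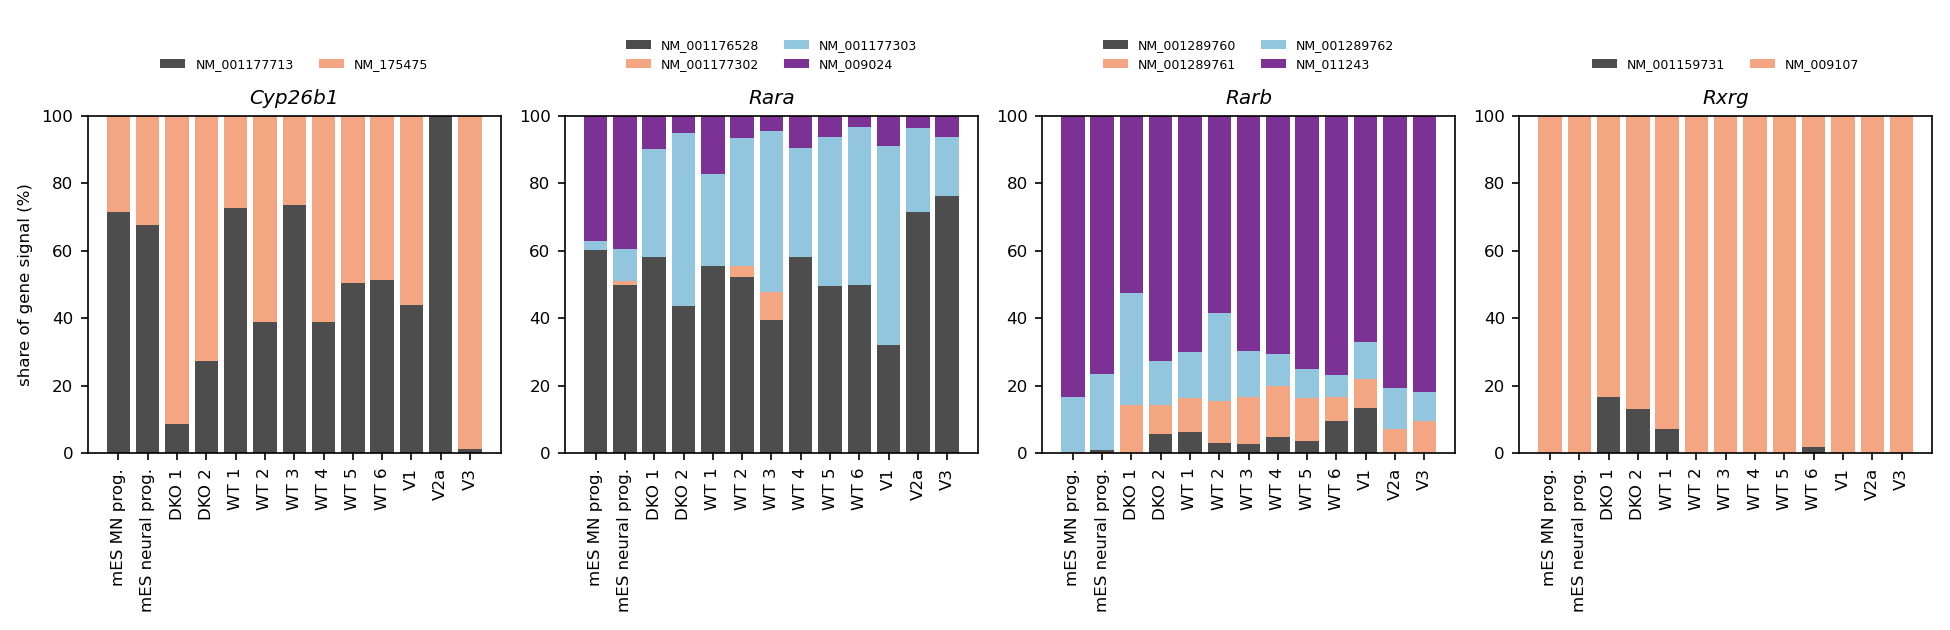
Stacked bars give the share of each gene's signal (%) held by its RefSeq transcripts in each library. NM_001177713 of Cyp26b1 is lowest among motoneurons in DKO (8.7% and 27.5%), NM_009024 of Rara is highest in the mES libraries (36.9% and 39.5%), and NM_011243 holds most of Rarb throughout (52.5% to 83.4%).

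Another 39 genes of vitamin A metabolism, retinoid signalling and its targets were set beside the members. Of 12 tested genes for retinol handling, 1 was lower in DKO than in WT motoneurons and none higher, a share near that of all genes (4.77% lower, 3.22% higher). This was Dhrs3, an enzyme that turns retinal back to retinol, with 15.5 and 16.7 in DKO motoneurons and 25.2 to 50.8 in WT motoneurons. Its difference was -1.25 (limma adjusted p = 0.0204). The list's largest estimate was that of Aldh1a3, another enzyme of the last synthesis step. It was 2.14, higher in DKO and opposite to Aldh1a2, and did not pass (limma adjusted p = 0.0652). Of 11 receptors and coregulators, 1 was lower, Fabp5, which carries retinoic acid to PPARδ, with 4081 and 4018 in DKO and 5175 to 6864 in WT motoneurons, a difference of -0.52 (limma adjusted p = 0.0377). None of the 11 retinoic acid targets tested was called in either direction, and their median difference was 0.26, beside -0.14 for retinol handling and -0.27 for receptors and coregulators. At an unadjusted limma p under 0.05, 0 of these 11 targets passed. With 7.99% of all genes called, a count of 0 among 11 says little about the targets.

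In the comparison of WT motoneurons with interneurons, 3 of 11 genes for retinol handling with a mean of at least 1 on both sides were higher and 1 was lower, against 17.7% and 15.2% of all genes. The receptor for retinol uptake, Stra6, had 228 to 438 in WT motoneurons and 6.93, 159 and 84.4 in V1, V2a and V3, a difference of 2.80 (limma adjusted p = 0.0141). Rbp4, the retinol carrier of plasma, differed by -1.13 (limma adjusted p = 0.0355). Aldh1a3 entered the test against interneurons only through the WT motoneurons and is given without that test. It had 45.3 and 17.3 in DKO motoneurons, 2.17 to 14.4 in WT motoneurons and 0.664 to 1.35 in interneurons, far below Aldh1a2 in both motoneuron groups.

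The target list went the other way, with 7 of 12 lower and none higher in WT motoneurons, against 15.2% and 17.7% of all genes. Gbx2 differed by -3.12 (limma adjusted p = 0.0194), Hoxb5 by -2.85, Hoxb4 by -2.73 and Hoxb1 by -2.49, and the list's median was -1.39. Most of these targets are Hox genes, which also mark position along the cord. Among 11 receptors and coregulators, 1 was higher, Fabp5 by 0.89, and 2 were lower, among them the coactivator Ncoa6 (-0.38).

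In mES progenitors against neurons, 4 of 11 genes for retinol handling with a mean of at least 1 on both sides were higher and 1 lower, against 33.0% and 27.2% of all genes, and Rbp4 (4.2) and Dhrs3 (4.16) had the largest differences. Dhrs3 had 422 in mES motoneuron progenitors and 934 in mES neural progenitors, and 17.4 to 50.8 in the neurons. Of the targets, 4 of 12 were higher, among them Tgm2 (6.45) and Hoxb1 (5.21), and 3 lower, a share near that of all genes. Cyp26c1, a further enzyme of breakdown, Aldh1a1, another of synthesis, and the target Cdx1 entered the test only through the mES libraries and are given without one. Cyp26c1 had 15.0 in mES motoneuron progenitors and 53.2 in mES neural progenitors, and was at 0 in 8 of the 9 neuron libraries. Aldh1a1 had 12.3 and 21.4 in the same mES libraries and at most 5.0 in a neuron library, and Cdx1 had 79.8 and 217 in them and at most 0.467 in a neuron library. Receptors and coregulators were split, with 4 of 11 higher, led by Ppard (2.90) and Rarg (2.26), and 4 lower, led by Fabp5 (-2.12) and Ncoa1 (-1.31). Rarg, the third receptor of the RAR family, had 81.6 in mES motoneuron progenitors and 439 in mES neural progenitors, against 11.8 to 60.5 in the neurons.

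**Figure D5:**
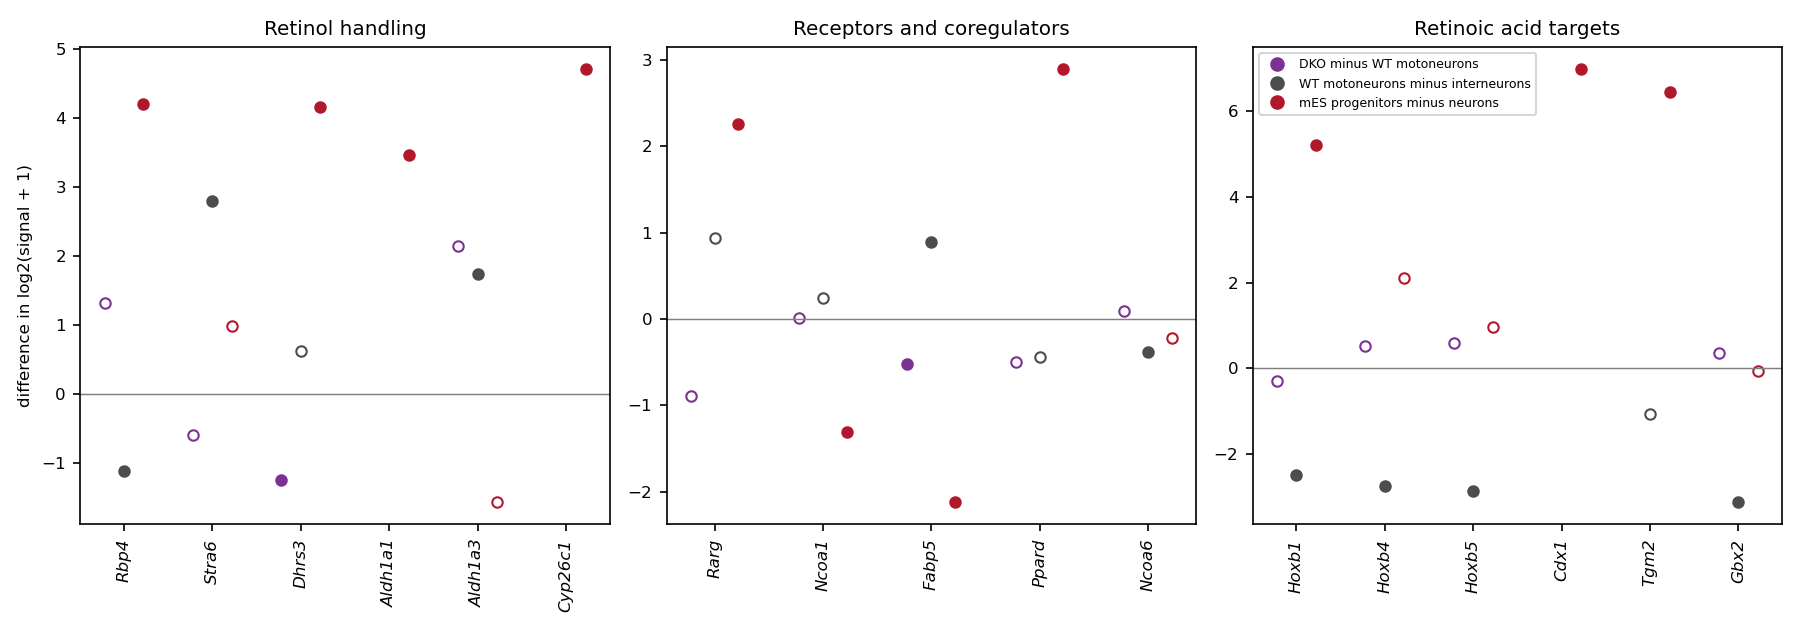
Points give the difference in log2(signal + 1) of the genes named in the text for retinol handling, receptors and coregulators, and retinoic acid targets, for DKO minus WT motoneurons (purple), WT motoneurons minus interneurons (grey) and mES progenitors minus neurons (red). Filled points passed an adjusted p of 0.05 over all genes; Dhrs3 and Fabp5 are the filled purple points, and the filled grey points of the target panel lie below 0. Aldh1a3 (grey) and Aldh1a1, Cyp26c1 and Cdx1 (red) entered the test through 1 group alone.

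Genes of like pattern were sought among the 13709 genes that averaged 10 or more, by Pearson's r of log2(signal + 1) over the 13 libraries, many of which belong to the same cell group. Closest to Aldh1a2 were Nrp1 (r = 0.992), a receptor for axon guidance cues, Kcnab1 (0.992), a subunit of potassium channels, and Fam135b (0.989). Nrp1 had 1009 and 902 in DKO motoneurons, 1230 to 1882 in WT motoneurons and 161, 48.3 and 93.5 in V1, V2a and V3. Closest to Rarb were Ndufs4 (0.929) and Atp5j (0.920), both of the mitochondrial respiratory chain and ATP synthase, and Laptm4b (0.911).

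For the other members the nearest genes were Zc3hav1 for Cyp26a1 (0.993), Dkk3 for Cyp26b1 (0.935), Slc25a33 for Crabp1 (0.876), Eif4e2 for Crabp2 (0.978), Chd4 for Rara (0.893), Mcam for Rxra (0.946), Irx6 for Rxrg (0.990) and AU015836 for Stra8 (0.998). The likeness of Cyp26a1 and Stra8 to their partners rests on the mES libraries, where Zc3hav1 had 84.9 in motoneuron progenitors and 168 in neural progenitors, and AU015836 had 163 and 369. Irx6, like Rxrg, was a motoneuron gene, with 119 and 101 in DKO motoneurons, 97.7 to 168 in WT motoneurons and 1.37 to 2.42 in interneurons.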

How the data were processed

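The authors deposited a signal per gene (23523 entries) and per transcript (31702 entries) on RefSeq models, as the file headers show. Without giving a role, the submitters' processing notes list DESeq and bedtools and the builds mm9 and mm10; no aligner or counter is named in these sources. Per the labels' protocols, polyadenylated RNA was made into libraries with the TruSeq kit (v2), which keeps no record of strand. The signal was no count: its 75th percentile was 228 to 234 in each library, and, once multiplied by transcript length, the values of 78.3% to 79.7% of single-transcript genes came within 0.1 of whole steps of a library's own constant (20% by chance). That gave the approximate depths. Values under about 3 reads carry little information.

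Differences were tested with limma 3.58.1 (R 4.3.3) after adding 1 and taking log2, using the trended prior for the variance. Genes averaging 1 or more in the compared libraries entered; two-sided p-values were adjusted by Benjamini-Hochberg over all genes, with a threshold of 0.05. Such differences understate the change of low genes. Shares given for all genes count every gene that entered, also those that did so through 1 group alone. Counts limited to a mean of at least 1 on both sides leave those out. Had the values been counts, a count test would have been used. Interneuron types and mES populations were taken as members of 1 class each. The code was tested on simulated data. The highest correlation between libraries was 0.988, so none was a copy.

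The members and lists were chosen with earlier results of these data known. Beside the 10 members, the text names up to 4 genes per retinoid list and comparison, those with the largest differences past the threshold. It also names the genes of likest pattern (3 for Aldh1a2 and Rarb, 1 for the others). Aldh1a3 in DKO, Foxp1, Hoxa10, Hoxc8, Hoxd10, Lhx3, Lhx4 and Rn45s were added after their values were seen. Alternatives were other pseudocounts, filters, scalings and variance priors, 1 fit of all libraries, a replicate block, the exact permutation test, and fits without single libraries or with a part of the WT libraries. A few genes that this rule names are not reported here, though the counts include them.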

Additional observations from a re-analysis of the deposited data

Results flagged for a closer look

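In the 6 WT motoneuron libraries, Cyp26a1 had a signal of 1.99 (about 5 reads) in replicate 5 and 0 to 0.742 in the others. Its gap, as a share of the range, was 0.627 and just passed the limit of 0.625 of Dixon's test. Stra8 had 0.454 in WT replicate 1 and 0 in the others, which is about 1 read. For normally spread values, chance alone gives such a gap in about 1 in 20 groups, and both values lie at the limit of detection. Cyp26a1 was at 0 in 3 of these libraries, so the rate need not hold for it. With all other values at 0, any signal of Stra8 would have been flagged, so that rate does not apply to it.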

How the results depend on the processing

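Of the refits of single members, 485 kept the direction and side of the threshold, 21 lost a call, 13 gained one and 1 reversed: Crabp1 in WT motoneurons against interneurons, at -0.72 without V3 (up to 1.07 without V1). Between DKO and WT motoneurons, 3 members and 1299 genes were called. A constant variance prior called 844 genes, and 1 fit of all 13 libraries called 0 members and 247 genes. WT replicates 2, 3 and 4 alone gave 5 members and 2452 genes, and WT replicates 1, 5 and 6 alone 2315 genes. Leaving out 1 library gave 0 to 4 members and 97 to 2032 genes: 97 without DKO replicate 1 and 141 without DKO replicate 2 (0 members each), 2032 without WT replicate 2 and 827 without WT replicate 4. The labels do not say whether replicate numbers shared by DKO and WT pair the libraries. Deviations from the group mean correlated at -0.0463 for replicate 1 and 0.0134 for replicate 2. Over all combinations they ran from -0.0943 to 0.0943. With 2 DKO libraries the deviations mirror each other, so this range is symmetric by construction and does not exclude pairing. A replicate block left 1 member and 214 genes called. Between WT motoneurons and interneurons, 6 members and 5419 genes were called. WT replicates 1, 5 and 6 alone gave 3 members and 3536 genes, and leaving out 1 library gave 6 to 7 members and 3684 to 5672 genes. Between mES progenitors and neurons, 5 members (among them Stra8 and Cyp26a1, tested only through the mES libraries) and 10371 genes were called, and leaving out 1 library gave 2 to 6 members and 8560 to 10499 genes, with 2 members, Stra8 and Cyp26a1, without the mES motoneuron progenitors. Where a left-out library leaves 1 in a group, that library is assumed to vary like the other group. The causes of these changes were not tested.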
